A study of Mus musculus with 2 samples.

Results

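The 10 genes described here encode the calcium release channels of the endoplasmic reticulum and the proteins that refill it: the ryanodine receptors Ryr1, Ryr2 and Ryr3, the inositol trisphosphate (IP3) receptors Itpr1, Itpr2 and Itpr3, the calcium sensors Stim1 and Stim2, and the plasma membrane channel subunits Orai1 and Orai2. They were chosen by symbol from 55450 annotated genes, with no threshold on their values but with earlier results of these data known. Each symbol matched 1 gene of the deposited tables. The study sequenced total RNA, 300 ng per library, from tissue labelled as a layer of hippocampus; the mice were males of the strain 5xFAD/CAST, adult and 8 to 10 months old. 5xFAD mice carry human transgenes with mutations of familial Alzheimer's disease under the neuronal Thy1 promoter, and CAST is a wild-derived mouse strain. The libraries form 1 group of 2 biological replicates with the same donor identifier, so the spread between them may not be one between mice. No other genotype, age or tissue was compared.

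In neurons, calcium leaves the endoplasmic reticulum through ryanodine receptors, which open when cytosolic calcium rises, and through IP3 receptors, which need both calcium and the IP3 made by phospholipase C below metabotropic receptors. When the store empties, STIM proteins in its membrane sense the loss, cluster at contacts with the plasma membrane and open ORAI channels. Ryanodine receptor 2 and IP3 receptor 1 are known as the leading release channels of forebrain neurons, and ryanodine receptors have been studied in mouse models of Alzheimer's disease.

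Splicing of these genes changes stretches of their proteins, and the annotated transcripts that took the reads differed at the coding pieces printed here. All are mm10 sequences from GENCODE M21 transcripts, 5′ to 3′ on the coding strand. Capitals mark the alternative bases, and the 15 lower-case bases on each side are the neighbouring transcript sequence. The first 3 lines are the known splice sites SI, SIII and SIIB of Itpr1, and the fourth is the SIIB junction of a transcript without its codon. The Stim2 exon distinguishes the inhibitory form STIM2.1, the Stim1 exon leads to a shorter coding end, and the Ryr3 exons replace each other.
Itpr1 SI, chr6:108365299-108365343, + strand: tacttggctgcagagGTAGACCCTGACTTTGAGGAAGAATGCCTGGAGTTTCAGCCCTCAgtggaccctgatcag
Itpr1 SIII, chr6:108388339-108388365, + strand: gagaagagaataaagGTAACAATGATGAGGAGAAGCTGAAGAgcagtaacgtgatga
Itpr1 SIIB in Itpr1-201, chr6:108432646-108432648, + strand: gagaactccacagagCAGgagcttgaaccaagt
Itpr1 SIIB junction in Itpr1-205, from chr6:108431496 to chr6:108432649, + strand: gagaactccacagaggagcttgaaccaagt
Stim2 exon of Stim2-204, chr5:54110116-54110139, + strand: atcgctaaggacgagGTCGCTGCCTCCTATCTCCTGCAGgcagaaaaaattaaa
Stim1 exon of Stim1-209, chr7:102433197-102433233, + strand: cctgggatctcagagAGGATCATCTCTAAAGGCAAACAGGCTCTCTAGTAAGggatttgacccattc
Ryr3 exon of Ryr3-211, chr2:112672235-112672331, - strand: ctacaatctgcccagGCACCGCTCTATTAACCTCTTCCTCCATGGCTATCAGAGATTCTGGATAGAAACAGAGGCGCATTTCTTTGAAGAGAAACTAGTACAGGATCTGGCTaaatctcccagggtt
Ryr3 exon of Ryr3-204, chr2:112673166-112673265, - strand: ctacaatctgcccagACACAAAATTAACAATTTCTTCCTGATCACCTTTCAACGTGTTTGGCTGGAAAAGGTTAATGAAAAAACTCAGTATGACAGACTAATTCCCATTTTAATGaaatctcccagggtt

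The libraries held 25971827 and 28541551 expected counts over annotated genes, so that 1 count was worth 0.0385 and 0.0350 CPM (counts scaled to depth), and the 10 genes took 45212 and 47805 of them. Hippocampal markers were present: Prox1 of dentate granule cells stood at 25.9 and 31.2 TPM, the unit of transcript level scaled for length and depth, and Wfs1 of CA1 neurons at 57.4 and 63.7 TPM. The libraries differed in markers of neighbouring tissue. All 5 choroid plexus markers and all 7 striatal markers were higher in replicate 1, with summed levels of 1186 against 182 TPM and 158 against 63.2 TPM. The cerebellar list summed to 6.94 and 6.83 TPM with 2 of 5 markers detected, the skeletal muscle list to 4.98 and 4.99 TPM with 2 of 6, and the cardiac list to 6.87 and 3.82 TPM with 2 of 6. Of their highest markers, Slc1a6 had 175 and 187 counts, Acta1 66 and 66, and Tnnt2 70 and 24, while Actc1 had 0 counts in both libraries.

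All 10 genes reached 1 TPM in both libraries, as did 60.5% of 21938 protein-coding nuclear genes, and the median level of that detected background was 15.7 TPM. The order ran from Itpr1, Ryr2, Stim2, Orai2, Stim1 and Ryr3, all above that median, to Itpr2, Orai1, Ryr1 and Itpr3 below it. Among the 9 pairs of neighbours in this order, the libraries overlapped for Stim2 with Orai2 and for Stim1 with Ryr3. The other 7 pairs did not overlap, although Orai1 stood above Ryr1 by a narrow margin, 6.98 TPM at its lowest against 6.93 TPM at the highest of Ryr1. With 2 libraries a gene, no permutation test could reach the threshold, so none was made of the order.

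**Figure D1:**
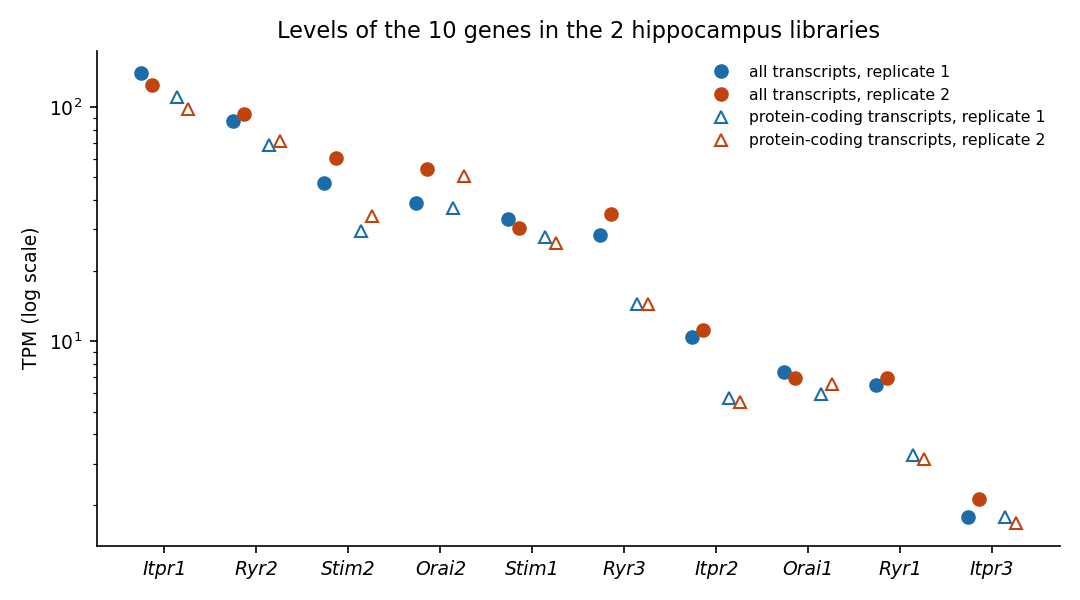
Level of each gene in TPM on a log axis, in replicate 1 (blue) and replicate 2 (orange), over all annotated transcripts of the gene (filled circles) and over its protein-coding transcripts alone (open triangles). Itpr1 and Ryr2 lead on both measures, and the triangles of Ryr1, Ryr3, Itpr2 and Stim2 lie well below their circles.

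Ryr2, the cardiac and brain ryanodine receptor (chr13:11553102-12106945, - strand), was the highest of its family. Its level was 86.8 TPM in replicate 1 and 92.8 TPM in replicate 2 (89.8 ± 4.28, SD, n = 2), from 13938 and 15640 counts. It made up 71.4% and 69.0% of the summed ryanodine receptor TPM and lay at percentile 95.6 of protein-coding genes.

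Ryr3 (chr2:112631355-113217096, - strand), the form first described in brain, had 28.2 and 34.8 TPM (31.5 ± 4.61, SD, n = 2), or 24.5% of the family on average. The libraries held 4239 and 4613 counts for it, which after scaling to depth were nearly equal. The TPM differed more because the length over which the authors' table divides the counts was 8278 bases in replicate 1 and 6852 bases in replicate 2, and that length depends on how reads were split among transcripts.

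Ryr1, the channel of skeletal muscle (chr7:29003344-29125179, - strand), was low but measured in both libraries, at 6.51 and 6.93 TPM (6.72 ± 0.297, SD, n = 2) and from 955 and 989 counts. It held 5.25% of the family. The skeletal muscle markers Acta1 and Mylpf, the highest of the 6 on that list, stood at 2.62 and 1.51 TPM on average, and the other 4 were under 1 TPM in at least 1 library.

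Itpr1 (chr6:108213096-108551109, + strand), the main neuronal IP3 receptor, was the highest of all 10 genes. It stood at 139 and 124 TPM (131 ± 10.9, SD, n = 2), with 17418 and 16170 counts, at percentile 97.5 of protein-coding genes. Cerebellar Purkinje cells are the classic site of very high IP3 receptor 1. Of the 5 cerebellar markers, Slc1a6 stood at 5.00 and 5.00 TPM, Car8 at 1.72 and 1.46 TPM and Pcp2 at 0 and 0.14 TPM, and their part in the level of Itpr1 was not tested. Itpr1 took 92.0% and 90.3% of the IP3 receptor TPM.

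Itpr2 (chr6:146108299-146502223, - strand), the form known from astrocytes and heart, had 10.4 and 11.1 TPM (10.7 ± 0.509, SD, n = 2) and 7.49% of the family. Itpr3 (chr17:27057304-27122223, + strand), better known from epithelia and taste cells, had 1.77 and 2.12 TPM (1.95 ± 0.247, SD, n = 2) from 285 and 290 counts, the lowest of the 10. In replicate 2, 0.45 TPM of this came from 2.16 counts on a 350-base processed transcript, Itpr3-202. The coding transcript alone had 1.77 and 1.67 TPM. In this bulk tissue, fewer cells of a type and less RNA per cell cannot be told apart.

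The families as a whole were closer than their leading members. The 3 IP3 receptors summed to 151 and 137 TPM and the 3 ryanodine receptors to 122 and 135 TPM, a log2 ratio of 0.32 in replicate 1 and 0.03 in replicate 2 (0.17 ± 0.21, SD, n = 2). The IP3 receptors were higher in both libraries, but on this scale the mean ratio was smaller than its SD. The same held for FPKM (0.17 ± 0.21, SD, n = 2) and posterior mean TPM (0.16 ± 0.22). The mean was larger than its SD on alignment-free TPM (0.26 ± 0.17) and on protein-coding transcripts (0.34 ± 0.15). On counts divided by the length of the longest coding transcript (RPKM) the log2 ratio was 0.59.

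Stim2, the sensor that answers to small falls in store calcium (chr5:53998499-54121057, + strand), had 47.3 and 60.6 TPM (53.9 ± 9.43, SD, n = 2). Stim1, the sensor of deeper store loss (chr7:102267806-102437319, + strand), had 33.2 and 30.4 TPM (31.8 ± 1.94, SD, n = 2). Stim2 was the higher sensor in both libraries, with 58.8% and 66.6% of their sum. Its lead was smaller on protein-coding transcripts, with 29.5 and 34.0 TPM for Stim2 against 27.8 and 26.3 TPM for Stim1.

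Orai2 was the leading channel subunit (chr5:136147459-136170713, - strand), at 38.8 and 54.2 TPM (46.5 ± 10.9, SD, n = 2). Orai1, the subunit on which store-operated entry of T cells depends (chr5:123015074-123030456, + strand), had 7.35 and 6.98 TPM (7.17 ± 0.262, SD, n = 2) from 200 and 211 counts. Orai3, the remaining subunit of the family and not among the 10 genes, had 9.81 and 11.5 TPM. Of the 3 subunits together, Orai2 held 69.4% and 74.6%, Orai3 17.5% and 15.8%, and Orai1 13.1% and 9.60%. The sum of the 2 Stim genes exceeded that of the 3 Orai genes by 0.42 ± 0.14 on the log2 scale, but on protein-coding transcripts the ratio was -0.04 and on RPKM -0.06, so no order of these families is given.

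A gene's TPM sums transcripts that are annotated as protein coding and others that are not, such as retained introns and fragments, and a short transcript gains much TPM from few reads. Transcripts not classed as protein coding held 50.1% and 54.6% of the TPM of Ryr1, 49.2% and 58.6% of that of Ryr3, 44.7% and 50.5% of that of Itpr2 and 37.6% and 43.8% of that of Stim2. The median over detected protein-coding genes was 13.0% and 12.5%, with an upper quartile of 32.3% and 31.8%, so that these 4 genes lay above it. Ryr2 (21.1% and 22.8%) and Itpr1, with nearly equal shares in the libraries and 20.9% in replicate 2, lay between the median and that quartile, and Orai2 (4.61% and 6.31%) below the median.

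The reads behind the shares of Ryr1 and Ryr3 were few. Those of Itpr2 were less so: Itpr2-206, a 2834-base transcript classed under nonsense-mediated decay, took 150 of 1310 and 167 of 1365 counts. Stim2 also had few: of its 2457 and 3039 counts, the 553-base processed transcript Stim2-202 took 122.5 and 161.6. The 652-base retained-intron transcript Stim2-205 took 28.5 and 87.3. Retained-intron transcripts held 6.14% and 6.40% of the counts of Ryr1 and 5.77% and 7.17% of those of Ryr3. A 430-base retained-intron transcript, Ryr3-203, took 30.8 and 67.0 counts and was listed at 5.14 and 10.5 TPM, while the 15468-base coding transcript Ryr3-211 took 3742 and 4282 counts and was listed at 13.4 and 14.4 TPM. On coding transcripts alone the order placed Orai2 above Stim2, Orai1 above Itpr2, and Stim1 above Ryr3 (27.8 and 26.3 TPM against 14.3 and 14.4 TPM), and no pair of neighbours overlapped.

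**Figure D2:**
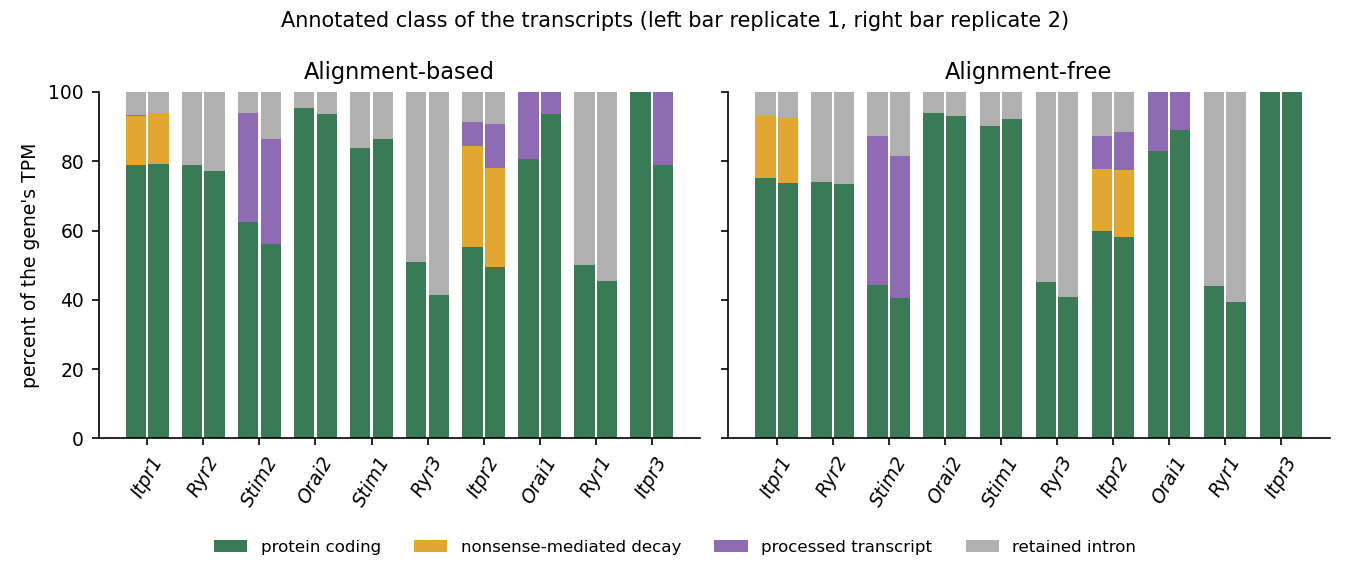
Percent of each gene's TPM held by transcripts of each annotated class, in the alignment-based table (left panel) and the alignment-free table (right panel), with the left bar of each pair for replicate 1 and the right bar for replicate 2. Retained introns hold about as much of the TPM of Ryr1 and Ryr3 as coding transcripts do, and a processed transcript holds a large share of Stim2.

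The authors deposited a second estimate of each transcript, made from the reads without alignment. The transcript with the highest TPM was the same in both estimates in both libraries for 5 of the 10 genes, Ryr2-201, Itpr2-202, Itpr3-201, Stim1-201 and Orai2-201, against 71.3% of 12556 detected genes with several transcripts. Among coding transcripts alone it was the same for 8 of the 10, against 73.3% of 9657 detected genes with several coding transcripts. The 8 include Itpr3, which has a single coding transcript and so could not differ, and the background leaves such genes out. The exceptions among coding transcripts were Itpr1 and Orai1. The 2 coding transcripts of Orai1 share their whole coding sequence of 912 bases, and Orai1-202 led in the aligned estimate (3.71 and 3.64 TPM) while Orai1-201 led in the alignment-free one (2.98 and 3.42 TPM).

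For Itpr1 the estimates disagreed on the SIIB codon shown among the sequences. Itpr1-201 and Itpr1-205 have 62 exons each and differ in 109 bases, of which codon 1715 of Itpr1-201, CAG, makes up all 3 coding bases. Itpr1-205, without the codon, had 58.7 and 51.4 TPM in the aligned table but 34.2 and 28.9 TPM in the alignment-free table. Itpr1-201, with the codon, had 33.9 and 29.2 TPM in the aligned table and 43.1 and 41.6 TPM in the alignment-free table. Over the 5 transcripts that span the site, those with the codon held 36.6% and 33.9% of the TPM by alignment and 54.1% and 48.8% without it, so that the estimates lay farther apart than the libraries.

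The other Itpr1 sites differed less between estimates. The SII segment lies between known phosphorylation sites of the receptor, and its long form is the neuronal one. Transcripts with the first, 33-base SII exon held 92.8% and 93.5% of the TPM that spans the segment by alignment and 80.5% and 82.8% without it. The last SII exon, SIIC, was in transcripts holding 96.8% and 99.0% by alignment and 96.8% and 96.3% without alignment. The 45-base SI exon, which adds 15 codons (positions 318 to 332) within the IP3-binding core, was in transcripts holding 90.5% and 87.6% by alignment and 91.3% and 88.3% without it. The transcript that skips SI, Itpr1-208, is a 647-base fragment and rested on 99.8 and 124 aligned counts.

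The 27 bases of SIII, which add 9 codons, were in 1 of the 4 annotated transcripts that span the site, Itpr1-213, a 1462-base fragment classed as a target of nonsense-mediated decay. It had 19.5 and 18.5 TPM by alignment and 24.8 and 24.2 TPM without it, from 481 and 487 aligned counts. Of the TPM of the 4 transcripts spanning SIII it held 16.8% and 18.2% by alignment and 23.1% and 24.3% without it. These shares compare fragments with full-length transcripts and are estimates of the authors' quantifiers, not counts of reads across the junctions.

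Minor coding forms of 3 other genes were estimated less evenly. Stim2-204, with the 24-base exon, was listed at 0.52 and 2.00 TPM by alignment and 1.74 and 2.60 TPM without it, against 23.0 and 24.2 TPM by alignment for Stim2-201, which lacks the exon. Stim1-209, whose 37-base exon is followed by a shorter coding end (1620 coding bases against 2055 in Stim1-201), was listed at 1.80 and 4.22 TPM by alignment and 4.61 and 7.05 TPM without it. Stim1-201 had 21.8 and 20.6 TPM by alignment. Each of these minor forms was below the main form of its gene in both libraries and both estimates.

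Ryr3-204, with the 100-base exon in place of the 97-base exon of Ryr3-211, was listed at 0 TPM in both libraries by alignment and at 3.07 and 2.02 TPM without it. Ryr3-211 was listed at 9.34 and 11.2 TPM in the alignment-free table. The estimates also differed for a non-coding transcript of Stim2: the 553-base processed transcript Stim2-202 had 14.9 and 18.4 TPM by alignment and 25.5 and 32.0 TPM without it, where it led the gene.

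**Figure D3:**
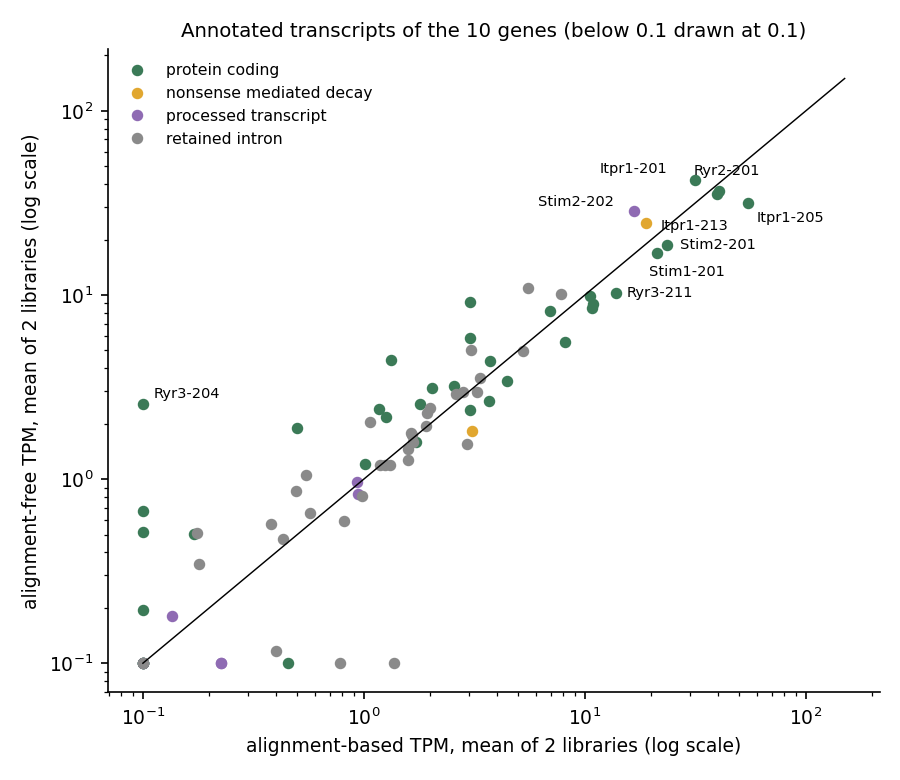
Each point is an annotated transcript of the 10 genes, with its mean TPM over both libraries in the alignment-based table (horizontal, log scale) and in the alignment-free table (vertical, log scale), coloured by annotated class. Values below 0.1 are drawn at 0.1, and the line marks equal values. Itpr1-205 lies below the line and Itpr1-201 above it, and Ryr3-204 is at 0 in the alignment-based table.

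The libraries were set against each other with an exact conditional binomial test on rounded counts, scaled by edgeR's TMM factors, with Benjamini-Hochberg adjustment over 16967 genes. This test compares 2 libraries with counting error alone and says nothing about a condition. At an adjusted p under 0.05 it called 3 of the 10 genes, where it called 18% of all genes. Higher in replicate 2 were 2 of them (9.08% of all genes) and higher in replicate 1 was 1 (8.89%).

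Orai2 differed most, with 2503 and 3563 counts, a log2 ratio of replicate 2 over replicate 1 of 0.38 (95% counting interval 0.31 to 0.46, exact binomial, adjusted p = 2.33e-22). Stim2, its partner in store-operated entry, had 2457 and 3039 counts and a log2 ratio of 0.18 (0.10 to 0.26, exact binomial, adjusted p = 9.08e-05). Itpr1 was lower in replicate 2 by a log2 ratio of -0.24 (-0.27 to -0.20, exact binomial, adjusted p = 3.94e-48). None of these reached 1.5-fold, a size that 3.68% of all genes passed together with the threshold.

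The other 7 genes did not pass, and their log2 ratios lay between -0.11 (Stim1) and 0.04 (Ryr2). The unadjusted counting intervals of Stim1 (-0.21 to -0.02) and Ryr2 (0.005 to 0.07) left out 0. Those of the other 5 crossed it, for Ryr3 from -0.07 to 0.05, for Ryr1 from -0.21 to 0.05, for Itpr2 from -0.18 to 0.04, for Orai1 from -0.34 to 0.24 and for Itpr3 from -0.34 to 0.14. Ryr2 passed with DESeq2 size factors (0.06, exact binomial, adjusted p = 0.00822), and Stim1 with alignment-free counts (-0.12, exact binomial, adjusted p = 0.0329). Scaling to the ERCC spike-ins moved the median of all genes to 0.27 and called 58.8% of them, and 7 of the 10 members, all higher in replicate 2. On that scale Itpr1, at 0.03, was not called and lay below the median of all genes, and Orai2, at 0.65, and Stim2, at 0.45, lay above it.

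Markers of hippocampal fields and of neighbouring tissue differed between the same libraries. Called higher in replicate 2, as were 9.08% of all genes, were 5 of 5 dentate granule markers (median log2 ratio 0.32, summed level 72.5 and 94.9 TPM), 3 of 5 CA1 markers (median 0.11) and 3 of 5 CA2 and CA3 markers (median 0.25). Called higher in replicate 1, as were 8.89% of all genes, were 7 of 7 striatal markers (median -1.75), 5 of 5 of the choroid plexus (-2.76), 3 of 5 of mural cells (-0.40) and 3 of 4 of the endothelium (-0.27). None of the dentate granule markers was at 0. The lists were chosen with earlier results of these data known, so their shares are no test against those of all genes. In other lists, calls were higher in replicate 1 for 3 of 5 microglial markers and for 2 of 5 of cortex, astrocytes and oligodendrocytes. The same held for 1 of 3 of oligodendrocyte precursors and 1 of 2 tested cardiac markers. Interneuron and thalamic markers went both ways, with 1 called higher in replicate 2 and 2 in replicate 1 in each list. Neither the 2 tested cerebellar markers nor the 1 tested skeletal muscle marker were called. The part of these tissues and cell types in the values of Orai2, Stim2 and Itpr1 was not tested.

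**Figure D4:**
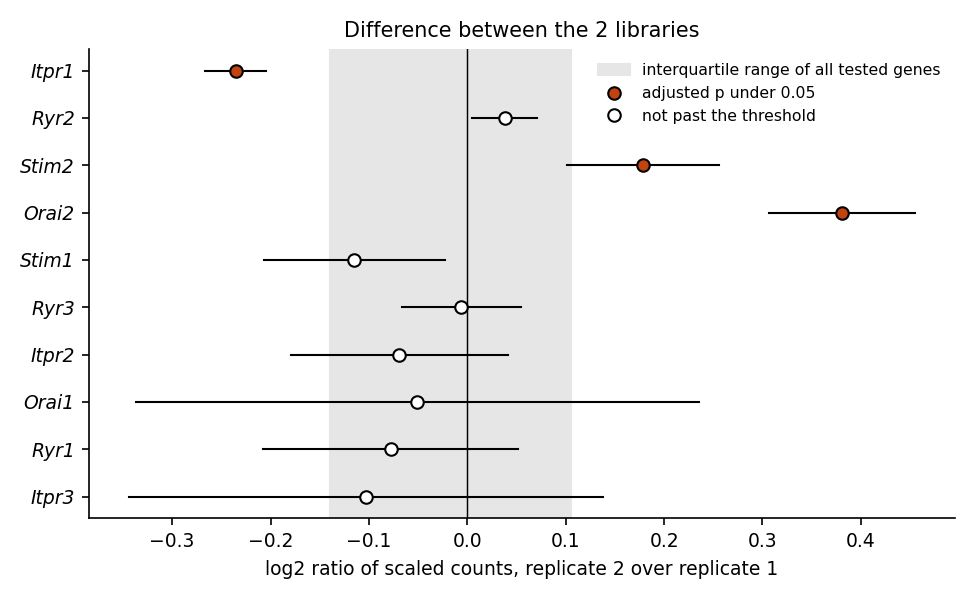
Log2 ratio of TMM-scaled counts in replicate 2 over replicate 1 for each gene, with the 95% counting interval as a bar, and filled points for an adjusted p under 0.05. The grey band is the interquartile range of all 16967 tested genes. Orai2 and Stim2 lie above the band and Itpr1 below it.

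The proteins that work with these channels were described from 7 lists with 93 genes. Of these, 81 reached 1 TPM in both libraries. Between the libraries 24 of the 88 with enough counts were called (27.3%, against 18% of all genes), 15 higher in replicate 2 and 9 higher in replicate 1, with a median log2 ratio of 0.01 against -0.00 for all genes.

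Among partners of the ryanodine receptor, 11 of 16 were detected, with Calm2 at 799 and 908 TPM and Calm3 at 673 and 768 TPM, whose product, calmodulin, binds and restrains the channel. These genes encode the same protein and can share reads. Casq1, Casq2, Trdn, Hrc and Jph2, which encode proteins of muscle release sites, were the 5 not detected. Not all such genes of the list were absent: Jph1 stood at 17.0 and 19.3 TPM and Asph at 60.6 and 68.7 TPM. Called between the libraries were 5 of 13 tested, all higher in replicate 2, as were 9.08% of all genes. Among them were Fkbp1a, Jph1, Calm2 and Calm3. The median log2 ratio of the 13 was 0.05, and the list was chosen with earlier results known, so its share is no test.

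All 16 genes of IP3 production and removal were detected, led by Itpka (90.3 and 109 TPM), the kinase that removes IP3 in dendritic spines, then the phospholipases Plcb1 (56.0 and 58.0 TPM) and Plcg1 (47.4 and 47.0 TPM). Itpka was called higher in replicate 2 and Itpkb in replicate 1. Of 15 proteins that bind IP3 receptors 13 were detected, with Grina at 252 and 283 TPM, Tmbim6 at 170 and 162 TPM and Ahcyl1, the competitor of IP3 known as IRBIT, at 134 and 135 TPM. In that list Homer3, Bok and Grina were called higher in replicate 2 and Bcl2 and Tmbim6 in replicate 1.

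Of the partners of store-operated entry 12 of 13 were detected. The highest was Saraf, which shuts off the STIM and ORAI pair, at 123 and 120 TPM, followed by Selenok at 51.5 and 47.3 TPM and the cation channel Trpc4 at 22.3 and 26.3 TPM. Called higher in replicate 2 were Trpc4 and Trpc5, and among those higher in replicate 1 was Trpc7. It was over 1.5-fold apart, with 79 and 50 counts (log2 ratio -0.78, exact binomial, adjusted p = 0.0210).

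The pump that refills the store was represented by Atp2a2, or SERCA2, at 226 and 249 TPM, while Atp2a1 of skeletal muscle and the pump inhibitors Pln and Sln were the 3 of 13 in that list under 1 TPM. The chaperones Canx (192 and 179 TPM) and Calr (183 and 178 TPM), of which calreticulin buffers calcium inside the store, came next. Atp2a2 was called higher in replicate 2, and Atp2a3, Canx, Hsp90b1 and Rcn1 in replicate 1. All 7 other channels of the reticulum and lysosome were detected, with Tmem38a (36.8 and 44.8 TPM), Mcoln1 (37.4 and 39.7 TPM) and Tmco1 (21.9 and 19.96 TPM) the highest. Only Tmem38a of these 7 was called, higher in replicate 2. Of 13 genes of mitochondrial calcium uptake 12 were detected, led by the outer membrane channels Vdac1 (212 and 235 TPM) and Vdac2 (97.8 and 109 TPM), both called higher in replicate 2, and Hspa9 (77.5 and 78.0 TPM).

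**Figure D5:**
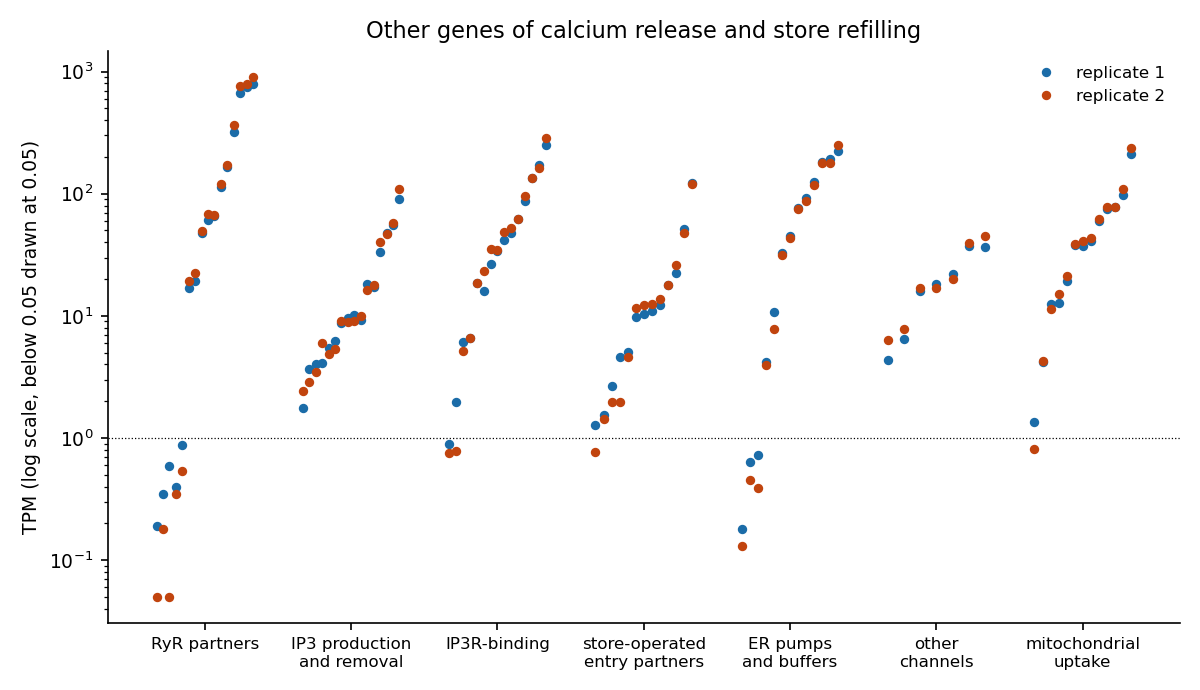
Level in TPM on a log axis of each of the 93 other genes of calcium release and store refilling, grouped by list and sorted within each list, in replicate 1 (blue) and replicate 2 (orange), with values below 0.05 drawn at 0.05. The dotted line is 1 TPM. The 5 lowest ryanodine receptor partners and the 3 lowest pump genes lie under it in both libraries.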

How the data were processed

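Per the notes deposited with the files, the authors quantified strand-specific, ribosomal RNA-reduced total RNA libraries with ERCC spike-ins on mm10 with GENCODE M21. Which aligner and quantifiers were used is not given in the sources used here. An expected count, per the file headers, is an estimate of the reads of a gene or transcript, and was rounded here. The authors' TPM and FPKM columns adjust for length and library depth, per the file headers. A percent column, also made by the authors, gives the share of a transcript in its gene. Alignment-free estimated counts and TPM were deposited for transcripts only, and sums per gene were made here. Numbered entries, spike-ins and 86 gene identifiers not matched to the annotation were not used here.

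Detection meant at least 1 TPM in both libraries. The library comparison required a mean of at least 20 expected counts, edgeR 4.0.16 TMM factors (R 4.3.3), a prior count of 0.5 for ratios, a two-sided exact binomial test (scipy 1.17.1) and Benjamini-Hochberg adjustment; it was tested on simulated data. DESeq2 1.42.0 size factors were an alternative. Intervals and p-values cover counting error only. A count of 0 allows 3 counts, or 0.116 and 0.105 CPM.

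The members and lists were chosen with earlier results of these data known. Named were all members, the 3 highest genes of each pathway list and any called over 1.5-fold apart (a few list genes that this takes in are not reported here), the leading transcript of each member and any with 20% of its TPM; the genes called in each list, the other marker genes, and the transcripts shown for their splice sites, were chosen after their values were seen. RPKM on the longest coding transcript was added after seeing the data.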

Additional observations from a re-analysis of the deposited data

How the results depend on the processing

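No paired analysis was possible because the 2 libraries form 1 group. The counts of detected genes, and the members' calls with DESeq2 size factors, library size, no count filter or alignment-free counts, stayed within 1.5 times the values given.

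Ryr2 held 68.5% of ryanodine receptor TPM with posterior mean TPM, 68.3% with alignment-free TPM and 80.0% on coding transcripts, against 70.2%. Itpr1 held 93.4% of its family on coding transcripts, against 91.2%. Stim2 held 70.1% with alignment-free TPM, 54.0% on coding transcripts and 55.8% on RPKM, against 62.7%. The log2 ratio of IP3 to ryanodine receptors rose to 0.59 on RPKM. Leading coding transcripts were the same for 8 members, counting Itpr3 with its single one, against 5 over all transcripts. The cause was not tested.

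Another scaling shifts all log2 ratios by 1 common amount, so that a member below 0 by less than that amount changes sign by construction. Itpr1, called at -0.24 with TMM scaling, changed sign with spike-in scaling and was not called. With spike-in scaling 7 members were called, and log2 ratios became 0.19 for Ryr1, 0.26 for Ryr3, 0.031 for Itpr1, 0.20 for Itpr2, 0.16 for Itpr3, 0.15 for Stim1 and 0.22 for Orai1. DESeq2 size factors turned that of Ryr3 to 0.011.

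With 2 libraries of 1 donor identifier, an SD rests on a single difference, and Itpr3 and Orai1 had under 300 counts a library. The transcript shares rest on fragments and annotated models, and reads across the splice junctions were not analysed here.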
